A study of Mus musculus with 93 samples.

Results

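Liver transcriptomes of PWK/PhJ and 129S1/SvImJ mice fed a western-style diet (WD) were compared. The comparison took every WD library of those strains, 7 PWK/PhJ and 6 129S1/SvImJ mice out of 93 mice in the series, and every gene that passed the filter on low counts, 19110 of 53465 genes listed. The study fed WD or a matched control diet (CD) to males of 7 inbred strains, and 6 PWK/PhJ and 7 129S1/SvImJ mice on CD served here as the background for the WD difference. All 26 mice were moved to 30 °C, the thermoneutral zone of the mouse, at 6 weeks of age, received their diet from 7 weeks and were killed at 24 weeks after 17 weeks on it, with a 4 h fast and perfusion of the liver with saline. WD supplied 40% of its energy as fat and CD 10%. PWK/PhJ is a wild-derived inbred strain and 129S1/SvImJ a domesticated one. The study describes no transgene, engineered deletion or drug in these mice, so the groups differed by the whole genetic background. Each library came from the whole liver of 1 mouse, and p-values therefore measure the spread between mice. The strains were also raised in different cohorts (PWK/PhJ in cohorts 1 and 2, 129S1/SvImJ in cohorts 3 and 5), so that between these groups strain and cohort cannot be told apart. They shared no cohort, and in the alternative fit with cohort as a covariate the step between the cohorts of PWK/PhJ and those of 129S1/SvImJ was estimated only through other strains.

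Long feeding of a fat-rich diet loads hepatocytes with lipid and can progress to steatohepatitis, in which injured hepatocytes, recruited leukocytes and activated stellate cells act together. Stellate cells, the vitamin A-storing pericytes of the sinusoid, become myofibroblasts that lay down collagen, and cholangiocyte-like cells expand around the portal tracts in the ductular reaction. Kupffer cells are the resident macrophages of the sinusoid, and monocyte-derived macrophages, T cells and natural killer cells join them when the liver is inflamed.

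Between 44479522 and 46606121 reads per mouse were assigned to genes in the PWK/PhJ WD group and between 46138359 and 47795742 in the 129S1/SvImJ WD group. The log2 expression of mice of 1 group correlated at r = 0.982 to 0.993 across genes, and no pair of libraries was identical. The labels held against the markers used to check them: the male transcript Ddx3y lay between 50.1 and 86.3 CPM (normalised read counts, relative to the TMM-scaled library size) and the female transcript Xist at no more than 1.82 CPM, and Alb, the hepatocyte product albumin, was at 56365 CPM in the median PWK/PhJ mouse and 65886 CPM in the median 129S1/SvImJ mouse. The share of reads that did not map was 7.88% ± 1.18 (SD, n = 7) in PWK/PhJ and 5.57% ± 0.67 (SD, n = 6) in 129S1/SvImJ on WD (exact permutation test, two-sided, p = 0.00466, 0.00932 after adjustment over 4 tests), against 3.50% ± 0.71 and 4.55% ± 0.66 on CD. Reads were mapped to the C57BL/6J reference, and the part of sequence divergence in a strain difference was not tested. The strain-by-diet interaction (the WD difference minus the CD difference) takes out whatever part of a difference is the same on both diets, and it is given beside many of the groups of genes. In bulk tissue, fewer cells of a type and less RNA per cell cannot be told apart. Prss2, a pancreatic trypsinogen, reached 37.8 CPM in PWK/PhJ WD replicate 1 and at most 0.36 CPM in the other WD mice.

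On WD, 5372 genes (28.1% of those tested) were higher in PWK/PhJ and 5127 (26.8%) higher in 129S1/SvImJ, at an adjusted p below 0.05 from limma with voom weights. All PWK/PhJ mice lay above all 129S1/SvImJ mice for 3396 genes (17.8%), and all 129S1/SvImJ mice lay above all PWK/PhJ mice for 3415 (17.9%). On CD the strains differed nearly as widely, with 5109 genes (26.7%) higher in PWK/PhJ and 4904 (25.7%) higher in 129S1/SvImJ. Of the genes called on WD, 7402 were called in the same direction on CD, 90 in the opposite direction and 3007 on WD without a call on CD. The interaction was called for 1518 genes, 745 (3.9%) shifted toward PWK/PhJ on WD and 773 (4.05%) toward 129S1/SvImJ. WD itself raised 2877 genes (15.1%) and lowered 2777 (14.5%) in PWK/PhJ, and raised 2766 (14.5%) and lowered 2593 (13.6%) in 129S1/SvImJ. The split of the interaction depended on the scaling, since upper-quartile factors in place of TMM factors gave 613 genes toward PWK/PhJ and 1023 toward 129S1/SvImJ. Both strains moved 2312 genes the same way, whereas 112 genes were called in opposite directions. Most genes that differed between the strains on WD thus differed on CD too.

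**Figure D1:**
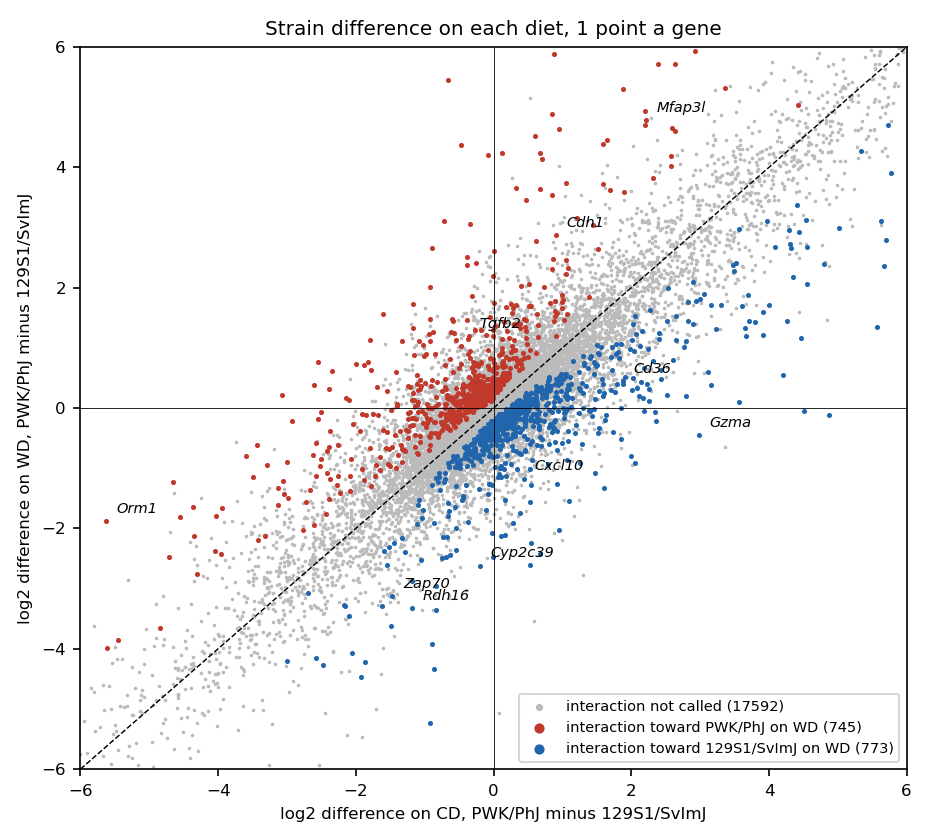
The log2 difference between PWK/PhJ and 129S1/SvImJ on WD (vertical axis) against the same difference on CD (horizontal axis), 1 point for each of 18861 genes, with the 249 genes beyond 6 on either axis not drawn. Coloured points mark the genes called in the strain-by-diet interaction, 745 toward PWK/PhJ and 773 toward 129S1/SvImJ on WD, and most genes lie along the diagonal of equal difference on both diets.

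More matrix genes were higher in PWK/PhJ than in 129S1/SvImJ on WD. Of 35 collagen genes tested, 16 (45.7%) were higher in PWK/PhJ and 6 (17.1%) in 129S1/SvImJ, against 28.1% and 26.8% of all genes. Their median log2 difference was 0.62, against 0.01 over all genes. On CD the same list was balanced, with 8 higher and 7 lower. Col3a1, which forms the reticular fibres that thicken in a fibrotic liver, read 56.1, 156 and 218 CPM in PWK/PhJ (lowest, median and highest mouse, the order used from here on) and 36.4, 55.7 and 64.7 CPM in 129S1/SvImJ, and only the lowest PWK/PhJ mouse fell within the 129S1/SvImJ range. The log2 difference was 1.40 ± 0.31 (SE; adjusted p = 8.79e-05), and for PWK/PhJ cohort 2 against 129S1/SvImJ cohort 5 it was 0.86 and did not pass (adjusted p = 0.0758). Col1a1, the main chain of fibrillar type I collagen, read 18.5, 70.0 and 117 CPM in PWK/PhJ and 14.6, 25.1 and 37.8 CPM in 129S1/SvImJ. The PWK/PhJ median was above every 129S1/SvImJ mouse, but 2 PWK/PhJ mice lay within the 129S1/SvImJ range, and the log2 difference of 1.27 ± 0.37 (adjusted p = 0.00229) fell to 0.77 (adjusted p = 0.287) when cohort was a covariate and to 0.47 (adjusted p = 0.456) for PWK/PhJ cohort 2 against 129S1/SvImJ cohort 5. Col1a2, its partner chain, differed by 0.62 ± 0.29 and did not pass (adjusted p = 0.0622), but it was called under 7 of 27 alternatives, edgeR and DESeq2 among them, over which its value ran from 0.0856 to 1.27. WD raised Col1a1 in both strains, from a CD median of 3.50 CPM in PWK/PhJ (log2 change 4.01 ± 0.54) and of 2.17 CPM in 129S1/SvImJ (log2 change 3.44 ± 0.60), and its interaction was not called (adjusted p = 0.736).

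Col5a2, a type V chain that sets fibril diameter, was the collagen with the largest difference toward PWK/PhJ (2.27 ± 0.36, adjusted p = 7.65e-08), and the groups did not overlap, at 22.01, 30.7 and 35.7 CPM against 4.83, 6.06 and 8.40 CPM. That difference was at least as large on CD (3.93 ± 0.46). The basement membrane chains Col4a1 and Col4a2 differed by 0.65 and 0.49, and the microfibrillar chains Col6a1, Col6a2 and Col6a3 by 0.72, 1.40 and 1.10. Collagens that were higher in 129S1/SvImJ were not fibrillar chains of type I or III: Col20a1 differed by -3.29, Col17a1, a hemidesmosome component, by -2.64, and Col7a1, the anchoring fibril collagen, by -1.50. The interaction was called for 2 collagens toward PWK/PhJ and 3 toward 129S1/SvImJ (5.71% and 8.57%, against 3.9% and 4.05% of all genes). Col6a6 had the largest interaction of the list toward PWK/PhJ (2.05). With cohort as a covariate 11 collagens stayed higher in PWK/PhJ in place of 16, and pairs of single cohorts gave 7 to 18.

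Among 50 matrix glycoproteins and proteoglycans, 20 (40.0%, against 28.1% of all genes) were higher in PWK/PhJ on WD and 6 in 129S1/SvImJ, while CD gave 10 and 12. The interaction was called for 7 of the 50 (14.0%, against 3.9% of all genes) toward PWK/PhJ and 0 toward 129S1/SvImJ. The summed level of the 50, which is weighted to the most abundant members, went the other way. It was 4062, 4333 and 4391 CPM in PWK/PhJ and 4618, 4905 and 5073 CPM in 129S1/SvImJ on WD, without overlap. On CD it was 4033, 4558 and 4866 CPM and 5143, 5395 and 5804 CPM. Vcan, the hyaluronan-binding proteoglycan versican of provisional matrix, read 1.01, 2.29 and 4.40 CPM in PWK/PhJ and 0.216, 0.385 and 0.688 CPM in 129S1/SvImJ. Every PWK/PhJ mouse was above every 129S1/SvImJ mouse, and the log2 difference was 2.54 ± 0.39 (adjusted p = 3.75e-08), against 0.52 ± 0.71 on CD (adjusted p = 0.566). Smoc2, a matricellular protein, and Mgp, the calcification inhibitor matrix Gla protein, also separated the groups, by 2.52 ± 0.30 and 1.99 ± 0.23. Smoc2 stood at 12.1, 23.7 and 35.7 CPM against 3.03, 3.72 and 4.56 CPM. Lama4, a laminin chain of vessel basement membranes, went the other way, at 1.50, 3.02 and 3.65 CPM in PWK/PhJ and 8.15, 9.79 and 10.99 CPM in 129S1/SvImJ (-1.76 ± 0.17, adjusted p = 2.64e-15), with a CD difference of -2.26 ± 0.22.

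The list of proteases, inhibitors and crosslinkers that remodel matrix had the highest share of members toward PWK/PhJ among the 3 matrix component lists, 25 of 45 (55.6%), with 5 toward 129S1/SvImJ. CD gave 9 and 5, and the interaction 6 and 0. Mmp27, a matrix metalloproteinase gene at GRCm38 chr9:7571396-7581885, read 4.33, 15.0 and 34.1 CPM in PWK/PhJ and 0.728, 0.867 and 1.24 CPM in 129S1/SvImJ, which is a difference of 4.02 ± 0.49 (adjusted p = 2.5e-11). WD raised it by 5.13 ± 0.63 in PWK/PhJ and by 2.06 ± 0.83 in 129S1/SvImJ (adjusted p = 0.0534), and the interaction of 3.07 ± 1.04 just missed the threshold (adjusted p = 0.0516). Adamts12, a secreted metalloproteinase, read 2.38, 4.83 and 7.47 CPM against 0.571, 0.715 and 0.986 CPM (2.60 ± 0.30) without overlap. Timp1, the tissue inhibitor of metalloproteinases that activated stellate cells release, read 1.99, 6.75 and 11.5 CPM in PWK/PhJ and 0.936, 2.12 and 2.79 CPM in 129S1/SvImJ, and the ranges overlapped. Lox, the copper enzyme that crosslinks collagen, read 2.64, 4.53 and 7.13 CPM and 1.24, 1.39 and 1.48 CPM, with all PWK/PhJ mice above all 129S1/SvImJ mice. Timp1 differed by 1.78 ± 0.33 (adjusted p = 3.53e-06) and Lox by 1.79 ± 0.34 (adjusted p = 5.03e-06), and with cohort as a covariate neither passed, at 1.03 (adjusted p = 0.196) and 1.43 (adjusted p = 0.0558). With that covariate 16 of the 45 members were higher in PWK/PhJ. The interaction count fell from 6 to 3 without PWK/PhJ CD replicate 5, a library with low macrophage and endothelial transcripts that is described with the Kupffer cell genes.

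**Figure D2:**
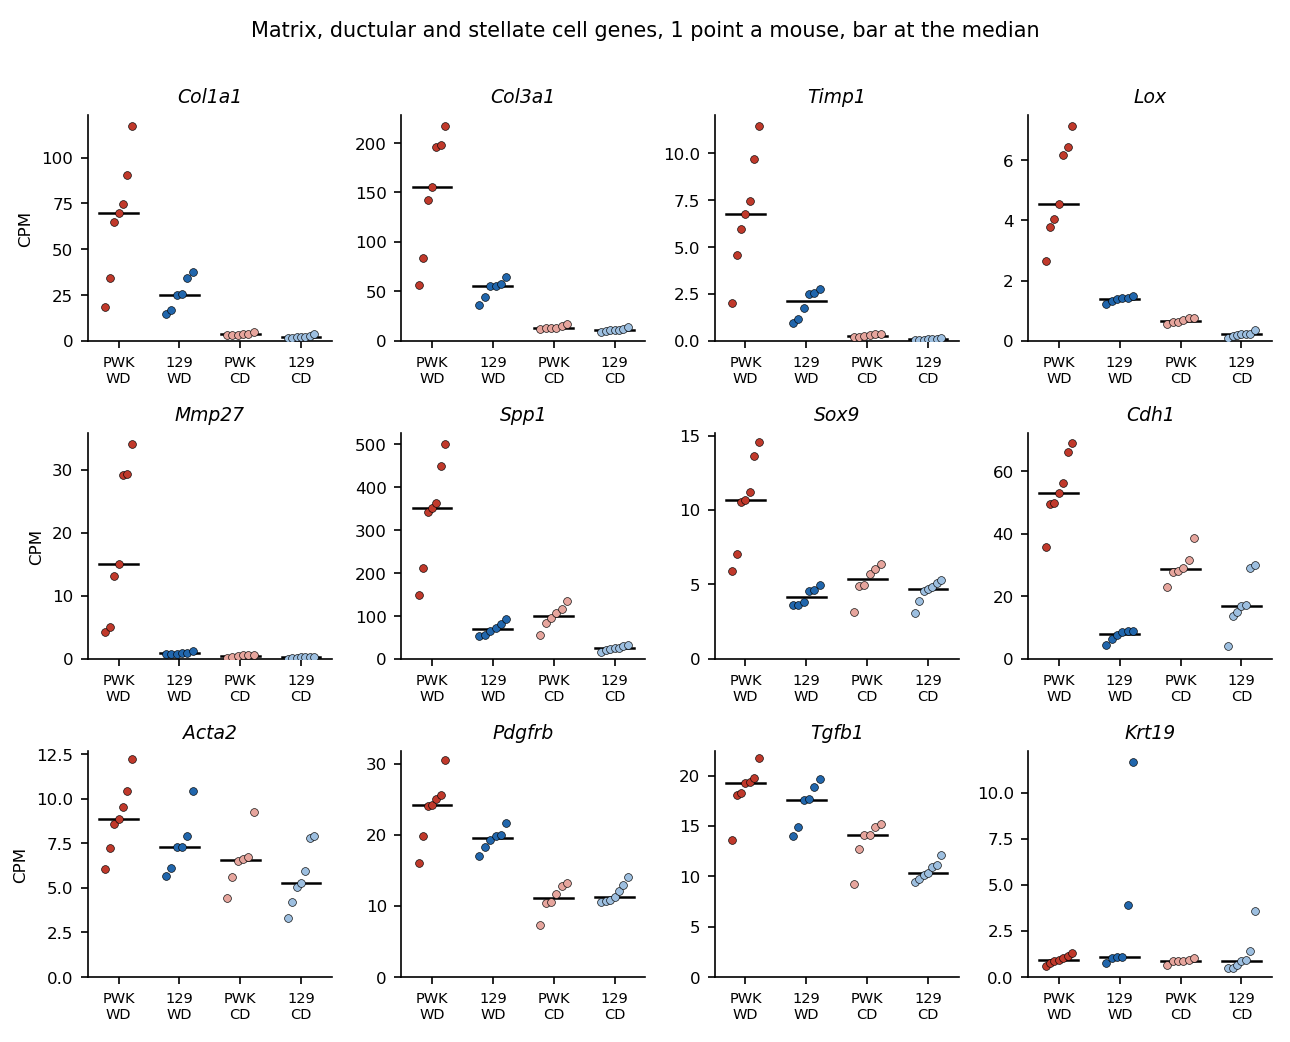
CPM, on an axis from 0, of 12 matrix, ductular and stellate cell genes in each mouse of the 4 groups (PWK/PhJ and 129S1/SvImJ on WD and CD), with 1 point a mouse and a bar at the group median. Lox, Mmp27, Spp1, Sox9 and Cdh1 separate the WD groups, 1 or 2 PWK/PhJ WD mice lie low for Col1a1 and Col3a1, the Acta2, Pdgfrb and Tgfb1 groups overlap, and 2 129S1/SvImJ mice stand out for Krt19.

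The stellate cell list was not called toward PWK/PhJ as the matrix lists were. Of 34 stellate cell genes, 8 (23.5%) were higher in PWK/PhJ and 10 (29.4%) in 129S1/SvImJ on WD, and CD gave 5 and 11. The WD shares lay near the 28.1% and 26.8% of all genes. WD raised 14 of the 34 (41.2%, against 15.1% of all genes) in PWK/PhJ and 8 (23.5%, against 14.5%) in 129S1/SvImJ. The interaction was called for 4 toward PWK/PhJ (11.8%, against 3.9% of all genes) and 1 toward 129S1/SvImJ. Acta2, the smooth muscle actin of myofibroblasts, read 6.07, 8.84 and 12.2 CPM in PWK/PhJ and 5.66, 7.27 and 10.4 CPM in 129S1/SvImJ, a difference of 0.27 ± 0.22 that did not pass (adjusted p = 0.302). Pdgfrb, the platelet-derived growth factor receptor of pericytes, read 16.1, 24.1 and 30.5 CPM and 17.0, 19.6 and 21.6 CPM (0.27 ± 0.16, adjusted p = 0.158). Neither pair of groups separated. Des, the intermediate filament desmin, and Reln, a stellate cell marker, were lower in PWK/PhJ, at -0.98 and -0.59. The summed level of 5 markers of stellate cells in general (Lrat, Reln, Des, Cygb and Pdgfrb) was 98.9, 112 and 139 CPM in PWK/PhJ and 124, 138 and 143 CPM in 129S1/SvImJ, with overlap and 2 of the 5 called lower in PWK/PhJ. Reln, the most abundant of them, made up the largest part of that sum, and the medians of Pdgfrb and Cygb were higher in PWK/PhJ. The 4 markers of activated stellate cells or myofibroblasts (Acta2, Tagln, Col1a1 and Timp1) summed to 27.0, 86.3 and 137 CPM in PWK/PhJ and 24.3, 35.1 and 46.3 CPM in 129S1/SvImJ, with overlap, and the 2 called higher in PWK/PhJ were the matrix genes Col1a1 and Timp1 given above. Hgf, the hepatocyte growth factor that stellate cells secrete, was higher in PWK/PhJ (0.52) and was called in the interaction (0.88).

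Of the receptors and ligands that drive fibrogenesis, those of PDGF and integrin signalling were called toward PWK/PhJ at more than the all-gene share of 28.1%, and those of TGF-β signalling were not. In TGF-β and activin signalling 10 of 38 members (26.3%) were higher in PWK/PhJ and 3 in 129S1/SvImJ, against 9 and 10 on CD. Tgfb1, the main profibrotic ligand, did not differ past the threshold (0.12 ± 0.12, adjusted p = 0.421), at 13.6, 19.3 and 21.8 CPM and 14.0, 17.6 and 19.7 CPM. Tgfb2, another ligand, read 1.44, 3.16 and 4.45 CPM in PWK/PhJ and 1.12, 1.19 and 1.65 CPM in 129S1/SvImJ, with slight overlap and a difference of 1.19 ± 0.26 (adjusted p = 6.2e-05). It was called in the interaction (1.55 ± 0.45, adjusted p = 0.0202). Tgfbr2, the type II receptor, separated the groups at 41.9, 66.7 and 88.0 CPM against 21.2, 24.6 and 32.1 CPM (1.35 ± 0.13) and did so on CD as well (1.06 ± 0.13). Ltbp2, a latent TGF-β binding protein, differed by 1.40 ± 0.30 on WD and by 0.05 ± 0.54 on CD. In PDGF and integrin signalling 13 of 20 members (65.0%) were higher in PWK/PhJ and 1, Itga9, in 129S1/SvImJ. The interaction toward PWK/PhJ was called for 3 members of the TGF-β list and 2 of the PDGF list, and toward 129S1/SvImJ for 0 of either. Ddr1, a collagen-binding receptor kinase, read 3.02, 8.37 and 12.4 CPM against 1.56, 2.04 and 2.71 CPM (1.83 ± 0.34, adjusted p = 3.01e-06), and the ligand Pdgfd 2.10, 3.96 and 7.54 CPM against 1.14, 1.33 and 1.87 CPM (1.58 ± 0.28). Both were free of overlap. The collagen-binding chain Itga11 differed by 2.51. Single mice weighed on these counts: without PWK/PhJ WD replicate 2 the TGF-β count was 8 and the PDGF count 9, and with cohort as a covariate they were 5 and 10.

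Ductular genes gave the highest share of members toward PWK/PhJ of the 42 lists. Of 29 genes, 20 (69.0%) were higher in PWK/PhJ on WD and 2 in 129S1/SvImJ, with a median log2 difference of 1.11, while CD gave 7 and 0. WD raised 21 of them in PWK/PhJ and 11 in 129S1/SvImJ. The interaction was called for 2 toward PWK/PhJ and 1 toward 129S1/SvImJ (6.9% and 3.45%, against 3.9% and 4.05% of all genes). Spp1, osteopontin, a secreted phosphoprotein of cholangiocytes and macrophages, read 149.6, 352 and 501 CPM in PWK/PhJ and 52.3, 68.7 and 93.9 CPM in 129S1/SvImJ. No mice overlapped, the difference was 2.19 ± 0.32 (adjusted p = 7.07e-09), and CD showed a like one (1.96 ± 0.32). Sox9, the transcription factor of biliary identity, read 5.92, 10.7 and 14.6 CPM and 3.60, 4.19 and 4.97 CPM (1.28 ± 0.25, adjusted p = 6.99e-06). On CD the Sox9 groups differed by 0.19 ± 0.27 (adjusted p = 0.581), and its interaction of 1.09 ± 0.37 was at the edge of the threshold (adjusted p = 0.0497) and lost under 27 of 39 alternatives. Sox4 and Bicc1, further biliary genes, differed by 1.89 ± 0.31 and 2.09 ± 0.30. The tight junction gene Cldn4 differed by 2.23, the surface glycoprotein gene Cd24a by 1.54 and Epcam, the epithelial adhesion molecule, by 1.05. Epcam overlapped, at 1.67, 4.09 and 6.96 CPM in PWK/PhJ and 0.907, 1.18 and 9.03 CPM in 129S1/SvImJ, whose highest mouse was above every PWK/PhJ mouse. The sum of 4 cholangiocyte markers (Krt7, Krt19, Epcam and Sox9) overlapped too, at 8.94, 17.1 and 23.4 CPM and 6.74, 7.72 and 26.9 CPM.

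Not every ductular gene followed. Krt7, a biliary keratin, did not pass (0.12), and Muc1, an epithelial mucin, was higher in 129S1/SvImJ (-1.36). Krt19, the keratin most used to count ductules, read 0.579, 0.911 and 1.33 CPM in PWK/PhJ and 0.746, 1.09 and 11.7 CPM in 129S1/SvImJ, and the high values came from 129S1/SvImJ WD replicates 1 and 2, at 3.93 and 11.7 CPM. The call toward 129S1/SvImJ (-1.03 ± 0.44, adjusted p = 0.0409) was lost without either of these mice (adjusted p = 0.127 and 0.354). Cdh1, the epithelial junction protein E-cadherin, read 35.8, 53.2 and 68.9 CPM in PWK/PhJ and 4.60, 8.02 and 8.99 CPM in 129S1/SvImJ, far apart on WD (2.87 ± 0.31, adjusted p = 3.7e-13). WD raised Cdh1 in PWK/PhJ (0.86 ± 0.26) and lowered it in 129S1/SvImJ (-1.11 ± 0.33), and the interaction was 1.97 ± 0.42 (adjusted p = 0.00107). With cohort as a covariate the ductular count was 14, and pairs of single cohorts gave 12 to 20.

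The PWK/PhJ mice varied among themselves. Of 61 members of the matrix lists that were higher in PWK/PhJ, replicate 6 had the lowest level of the 7 mice for 50 and replicate 2 the highest for 38. The ductular genes ranked the mice alike, with replicate 6 lowest for 16 of 20 and replicate 2 highest for 13. The summed level of the 61 matrix genes was 574 CPM in replicate 6 and 1297 CPM in replicate 2, with the other 5 mice between 733 and 1146 CPM. Without replicate 6, the counts toward PWK/PhJ were 19 for collagens, 23 for glycoproteins and 23 for ductular genes.

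Of 43 pan-leukocyte genes, carried by most white blood cells, 15 (34.9%) were higher in 129S1/SvImJ on WD and 2 (4.65%) in PWK/PhJ (median log2 difference -0.22), against 26.8% and 28.1% of all genes, whereas CD gave 3 and 4. WD raised all 43 in 129S1/SvImJ and 38 in PWK/PhJ. The interaction was called for 3 toward 129S1/SvImJ and 0 toward PWK/PhJ. Rac2, the GTPase of blood cell motility, read 5.51, 7.53 and 8.56 CPM in PWK/PhJ and 12.2, 14.3 and 20.3 CPM in 129S1/SvImJ, with no overlap (-1.05 ± 0.20, adjusted p = 3.98e-06). Laptm5, a lysosomal protein of lymphoid and myeloid cells, read 11.05, 17.4 and 19.5 CPM and 23.5, 27.9 and 34.5 CPM, also apart (-0.74 ± 0.20). Ptprc, the common leukocyte antigen CD45, did not separate the strains, at 13.4, 17.4 and 24.2 CPM and 14.4, 18.8 and 24.5 CPM (-0.07 ± 0.17, adjusted p = 0.738). The summed level of 4 leukocyte markers (Ptprc, Laptm5, Coro1a and Cd52) was 35.6, 49.3 and 61.6 CPM in PWK/PhJ and 53.8, 62.9 and 80.1 CPM in 129S1/SvImJ, again with overlap. Pairs of single cohorts gave 5 to 16 pan-leukocyte genes toward 129S1/SvImJ, the fit with cohort as a covariate 12. Adhesion molecules and leukocyte integrins gave 8 of 20 (40.0%) higher in 129S1/SvImJ and 2 in PWK/PhJ. They included the α4, β7 and β2 integrin chains Itga4 (-1.38), Itgb7 (-0.80) and Itgb2 (-0.56).

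Kupffer cell genes were higher in 129S1/SvImJ on both diets. Of 24 genes, 13 were higher in 129S1/SvImJ and 1, the endotoxin co-receptor gene Cd14, in PWK/PhJ on WD, against 12 and 0 on CD, and 1 was called in the interaction. Timd4, the phosphatidylserine receptor of long-resident Kupffer cells, read 3.16, 3.60 and 6.69 CPM in PWK/PhJ and 9.43, 11.5 and 14.7 CPM in 129S1/SvImJ (-1.56 ± 0.39, adjusted p = 0.000435). Fcna, a ficolin of Kupffer cells, read 2.89, 3.31 and 4.89 CPM and 9.85, 10.9 and 12.9 CPM (-1.60 ± 0.20), and Adgre1, the macrophage receptor F4/80, read 9.81, 11.9 and 20.6 CPM and 22.4, 27.1 and 31.7 CPM (-1.09 ± 0.23). None of the 3 overlapped between the strains. Clec4f, a lectin found on Kupffer cells, overlapped widely at 71.9, 81.2 and 118 CPM and 59.7, 74.6 and 90.3 CPM (0.20 ± 0.21, adjusted p = 0.432), as did Cd68, a lysosomal protein of all macrophages (medians of 23.9 and 23.4 CPM). PWK/PhJ CD replicate 5 was low in such genes, at 0.993 CPM for Adgre1 and 17.9 CPM for Clec4f, and without it CD gave 10 Kupffer cell genes toward 129S1/SvImJ and 2 toward PWK/PhJ.

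Of 33 T cell genes tested, 11 (33.3%, near the 26.8% of all genes) were higher in 129S1/SvImJ and 2 in PWK/PhJ on WD, against 4 and 6 on CD, and 5 were called in the interaction toward 129S1/SvImJ and 0 toward PWK/PhJ. WD raised 26 of them in 129S1/SvImJ and 5 in PWK/PhJ. Zap70, the kinase of the T cell receptor (GRCm38 chr1:36761798-36782818), read 0.878, 0.953 and 1.69 CPM in PWK/PhJ and 7.05, 9.21 and 10.5 CPM in 129S1/SvImJ. The groups were far apart (-3.12 ± 0.25, adjusted p = 5.38e-19), WD lowered it in PWK/PhJ (-1.32 ± 0.29), and the interaction was -1.66 ± 0.33 (adjusted p = 0.000563). Cd3e, a chain of the T cell receptor complex, was scarce, at 0.236, 0.380 and 0.459 CPM and 0.373, 0.573 and 0.887 CPM. Its difference (-0.71 ± 0.28, adjusted p = 0.0237) was lost without PWK/PhJ replicate 6 or 7 or 129S1/SvImJ replicate 4 and for both pairs that used 129S1/SvImJ cohort 3, over which the adjusted p reached 0.682. The costimulatory genes Icos and Ctla4 differed by -1.41 and -1.28. Cd8a, the co-receptor of cytotoxic T cells, went the other way at 1.43, 1.98 and 2.09 CPM against 0.229, 0.450 and 1.31 CPM (1.92 ± 0.34, adjusted p = 9.02e-07) and did so on CD (2.94 ± 0.45). Without 129S1/SvImJ or PWK/PhJ mice in turn the T cell count toward 129S1/SvImJ ran from 8 to 13, and pairs of single cohorts gave 4 to 13.

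Natural killer and cytotoxic genes shifted toward 129S1/SvImJ between CD and WD. Of 17 genes, 4 (23.5%, against 28.1% of all genes) were higher in PWK/PhJ and 2 (11.8%, against 26.8%) in 129S1/SvImJ on WD. On CD 9 (52.9%, against 26.7% of all genes) were higher in PWK/PhJ and 0 in 129S1/SvImJ. The interaction called 4 genes toward 129S1/SvImJ, Ncr1, Gzma, Gzmb and Prf1, and 0 toward PWK/PhJ. Gzma, granzyme A, read 0.380, 0.808 and 1.23 CPM in PWK/PhJ and 0.0213, 0.0632 and 0.252 CPM in 129S1/SvImJ on CD, and 0.0951, 0.335 and 0.719 CPM and 0.255, 0.460 and 0.726 CPM on WD. WD lowered it in PWK/PhJ (-1.16 ± 0.36) and raised it in 129S1/SvImJ (2.27 ± 0.49), an interaction of -3.43 ± 0.61 (adjusted p = 8.98e-05). Ncr1, the receptor NKp46 of natural killer cells, was raised by WD in 129S1/SvImJ (2.65 ± 0.46), with an interaction of -2.13 ± 0.57 (adjusted p = 0.0116), to levels that did not differ from PWK/PhJ past the threshold (0.12 ± 0.33). Ccl5, the chemokine of effector T and natural killer cells, followed at 1.58, 2.03 and 2.45 CPM and 0.894, 2.09 and 2.83 CPM on WD (0.17 ± 0.31) and an interaction of -2.001 ± 0.52 (adjusted p = 0.00927). Few B cell genes were called on WD: 1 of 22 was higher in PWK/PhJ and 2 in 129S1/SvImJ on WD, and Ms4a1, a surface protein of B cells, differed by -0.01 ± 0.31 and did not pass, while 4 B cell genes were called in the interaction toward 129S1/SvImJ. Plasma cell genes gave 1 and 2 of 15.

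MHC class II genes, which present antigen to helper T cells, gave more calls toward PWK/PhJ on CD and more toward 129S1/SvImJ on WD. Of 13 genes, 7 were higher in PWK/PhJ and 2 in 129S1/SvImJ on CD, against 2 and 5 on WD, and 5 were called in the interaction toward 129S1/SvImJ and 0 toward PWK/PhJ. Few single genes reversed. Of the 5 higher in 129S1/SvImJ on WD, 2 were so on CD and 2 were not called on CD. The 2 higher in PWK/PhJ on WD were so on CD. WD raised 12 of the 13 in 129S1/SvImJ and 6 in PWK/PhJ. H2-DMb1, a chain of the peptide-loading chaperone, read 3.32, 4.81 and 6.25 CPM in PWK/PhJ and 9.17, 12.2 and 15.8 CPM in 129S1/SvImJ on WD (-1.34 ± 0.22, adjusted p = 1.95e-07). Its CD ranges of 1.29, 3.03 and 4.25 CPM and 2.72, 3.13 and 3.89 CPM overlapped. The interaction of H2-DMb1 (-1.12 ± 0.38, adjusted p = 0.0493) and of its partner H2-DMa (-1.15 ± 0.38, adjusted p = 0.0466) were close to the threshold and lost under 27 and 26 of 39 alternatives. Ciita, the transactivator of class II genes, had an interaction of -1.45. Cd74, the invariant chain, read 122, 164 and 188 CPM and 181, 208 and 307 CPM on WD and did not pass (-0.46 ± 0.28, adjusted p = 0.155). H2-Eb1 stood at 1.03, 1.88 and 2.10 CPM against 71.3, 85.7 and 123 CPM (-5.70 ± 0.44) and differed on CD as well (-4.30 ± 0.54). It is a gene of the highly polymorphic major histocompatibility complex, so that its level is uncertain on a C57BL/6J reference. Cxcl10, an interferon-induced chemokine for T cells, read 2.84, 3.08 and 3.71 CPM and 3.29, 7.71 and 10.8 CPM, and only 1 129S1/SvImJ mouse fell within the PWK/PhJ range. It differed by -1.17 ± 0.25 (adjusted p = 4.19e-05) with an interaction of -1.61 ± 0.42 (adjusted p = 0.00855). Cxcl9, which binds the same receptor, had a difference of -0.93 and an interaction of -1.72.

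**Figure D3:**
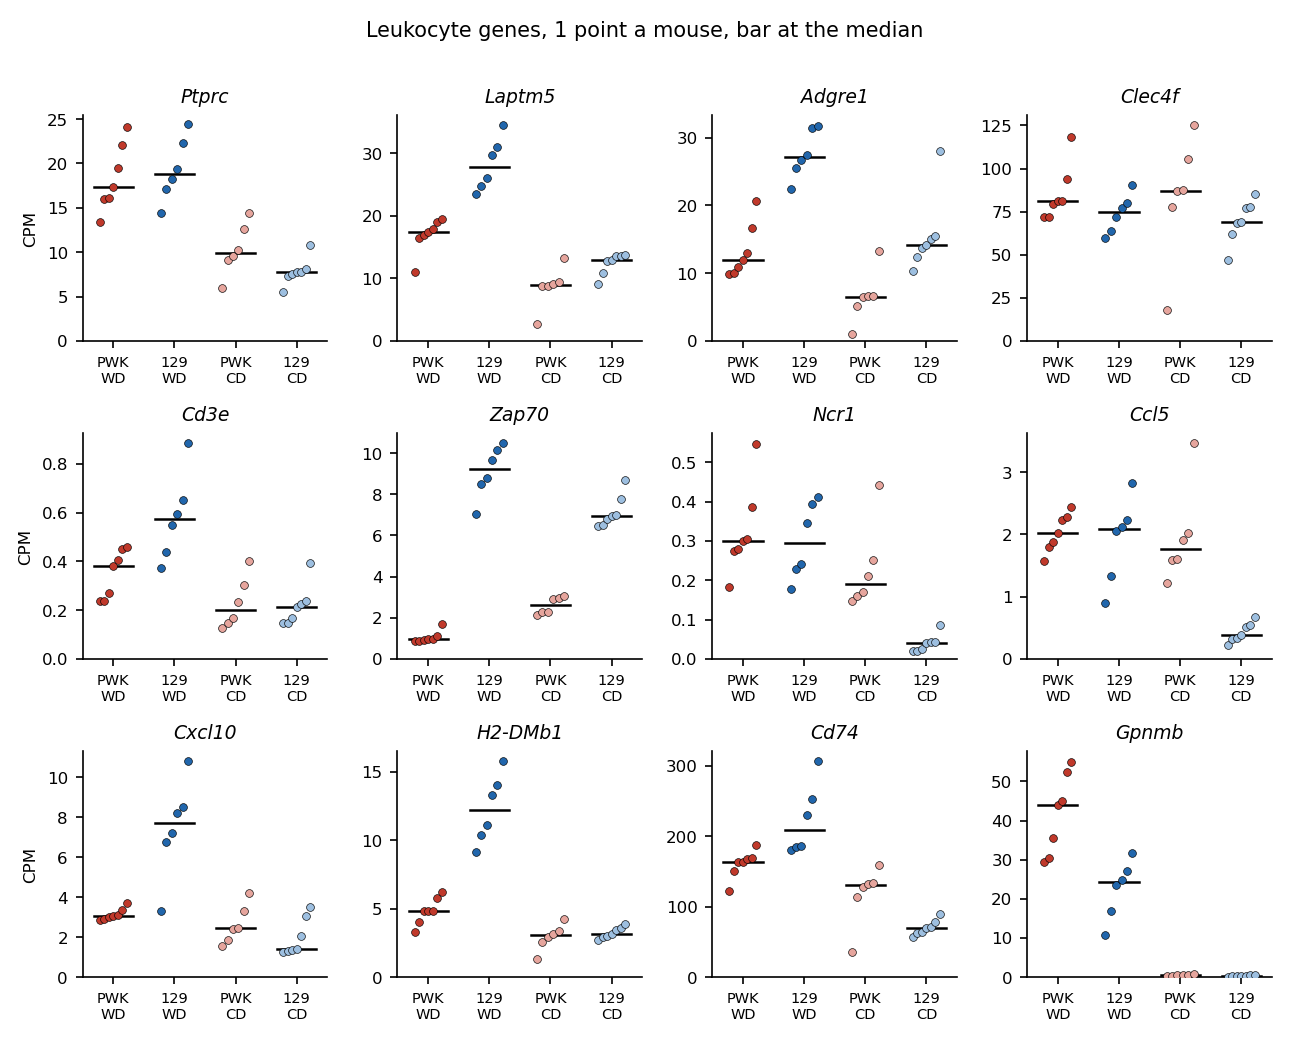
CPM, on an axis from 0, of 12 leukocyte and macrophage genes in each mouse of the 4 groups, with 1 point a mouse and a bar at the group median. Laptm5, Adgre1, Zap70 and H2-DMb1 are higher in 129S1/SvImJ on WD without overlap, the Ptprc, Clec4f, Ncr1, Ccl5 and Cd74 groups overlap on WD, and Ncr1 and Ccl5 are lower in 129S1/SvImJ on CD than on WD.

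Other myeloid genes did not follow the pan-leukocyte list. Lipid-associated macrophages are the lipid-laden cells that gather at steatotic hepatocytes. Of 29 of their genes, 11 (37.9%, against 28.1% of all genes) were higher in PWK/PhJ and 2 in 129S1/SvImJ on WD, and CD gave 12 and 4. The summed level of the 29 was higher in 129S1/SvImJ on WD. It was 15670, 17148 and 19125 CPM in PWK/PhJ and 19047, 20941 and 22451 CPM in 129S1/SvImJ, with slight overlap. Such a sum is weighted to its most abundant members. The sum of 4 markers of these cells (Trem2, Gpnmb, Cd9 and Spp1) went the other way. It was 192, 417 and 585 CPM in PWK/PhJ and 88.2, 111 and 151 CPM in 129S1/SvImJ, without overlap. Spp1 made up the largest part of it, and 1 of the 4 was called higher in PWK/PhJ and 0 lower. Cd63, a tetraspanin of late endosomes, read 24.1, 48.0 and 67.6 CPM in PWK/PhJ and 6.14, 9.20 and 9.80 CPM in 129S1/SvImJ (2.37 ± 0.31, adjusted p = 2.01e-10), and the CD difference was 1.97 ± 0.44. Trem2, the lipid receptor that marks these cells, read 1.18, 2.98 and 5.17 CPM and 1.10, 2.43 and 3.26 CPM (0.34 ± 0.40, adjusted p = 0.491), and Gpnmb, a lysosomal glycoprotein, 29.5, 44.1 and 54.9 CPM and 10.7, 24.3 and 31.6 CPM (0.94 ± 0.42, adjusted p = 0.0514). Neither passed, and both were raised by WD in each strain, Trem2 by 6.01 ± 1.05 in PWK/PhJ and 4.52 ± 0.84 in 129S1/SvImJ. Lyz2, the lysozyme of myeloid cells, was higher in 129S1/SvImJ, at 37.1, 51.1 and 79.0 CPM against 70.2, 112 and 127 CPM (-0.96 ± 0.25), less so than on CD (-2.53 ± 0.34), and its interaction toward PWK/PhJ of 1.57 ± 0.42 was lost without PWK/PhJ CD replicate 5 (adjusted p = 0.0514). Monocyte genes split evenly, 7 and 6 of 24. Of 20 neutrophil genes, 2 were higher in PWK/PhJ and 6 (30.0%, near the 26.8% of all genes) in 129S1/SvImJ. S100a8, a calcium-binding protein of neutrophils, stayed below 1.23 CPM in every WD mouse, and its call (-1.32 ± 0.47, adjusted p = 0.0123) was lost with cohort as a covariate (adjusted p = 0.0693).

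Chemokines went both ways, 9 of 31 (29.0%, near the 28.1% of all genes) higher in PWK/PhJ and 6 in 129S1/SvImJ. Ccl2, which recruits monocytes, overlapped at 2.21, 4.01 and 5.86 CPM and 3.18, 5.25 and 5.74 CPM (-0.29 ± 0.22, adjusted p = 0.260). Cxcl13 (1.36), the B cell chemokine, and Ccl24 (1.25), an eosinophil chemokine, were higher in PWK/PhJ. Il33, the alarmin released by damaged barrier and stromal cells, read 14.5, 22.6 and 29.4 CPM in PWK/PhJ and 2.66, 3.79 and 4.55 CPM in 129S1/SvImJ (2.61 ± 0.26, adjusted p = 1.07e-14), with a CD difference of 2.14 ± 0.30. The description of the 129S1/SvImJ liver as leukocyte-rich on WD was met by some leukocyte lists. By calls between the strains on WD, it was not met by the leukocyte genes as a whole. Kupffer cell (54.2%), adhesion (40.0%) and MHC class II genes (38.5%) were called toward 129S1/SvImJ at more than the all-gene share of 26.8%. The Kupffer cell genes were so for 12 of 24 on CD too. The pan-leukocyte and T cell shares lay nearer to that of all genes. Lipid-associated macrophage, dendritic cell (5 of 19 higher in PWK/PhJ and 1 in 129S1/SvImJ), natural killer and interferon-stimulated genes gave more calls toward PWK/PhJ than toward 129S1/SvImJ. The dendritic cell (26.3%) and natural killer (23.5%) shares toward PWK/PhJ were below the 28.1% of all genes. In each of these 2 lists the interaction called 4 genes toward 129S1/SvImJ and 0 toward PWK/PhJ. Over all 389 leukocyte and inflammation genes tested, 87 (22.4%) were higher in PWK/PhJ and 95 (24.4%) in 129S1/SvImJ on WD, both below the shares of all genes, against 112 and 64 on CD, and 36 were called in the interaction toward 129S1/SvImJ and 9 toward PWK/PhJ. WD raised 237 of the 389 (60.9%) in 129S1/SvImJ and 166 (42.7%) in PWK/PhJ.

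Interferon-stimulated genes were higher in PWK/PhJ on both diets. Of 45 genes, 26 (57.8%) were higher in PWK/PhJ and 7 in 129S1/SvImJ on WD, against 23 and 6 on CD, with 2 called in the interaction in each direction. Mx2, an antiviral GTPase, read 61.1, 74.9 and 84.9 CPM in PWK/PhJ and 8.17, 11.2 and 12.9 CPM in 129S1/SvImJ (2.76 ± 0.22, adjusted p = 1.89e-19). Oasl1, an oligoadenylate synthetase-like protein, read 22.7, 25.1 and 27.4 CPM and 3.22, 4.86 and 6.42 CPM (2.39 ± 0.24), and Mx1 7.71, 11.6 and 12.9 CPM and 1.06, 1.76 and 2.49 CPM (2.64 ± 0.24). All 3 were free of overlap. Ifit1, Ifit3 and Ifit3b, neighbours on chromosome 19 that code for tetratricopeptide proteins that bind viral RNA, did not move together. Ifit1 read 11.1, 14.6 and 17.6 CPM in PWK/PhJ and 4.14, 8.64 and 10.6 CPM in 129S1/SvImJ (0.93 ± 0.31, adjusted p = 0.00746). Ifit3b was also higher in PWK/PhJ, at 5.91, 8.28 and 9.96 CPM against 2.31, 2.81 and 3.87 CPM (1.41 ± 0.25), and Ifit3 was lower, at 1.78, 2.21 and 3.10 CPM against 6.99, 11.1 and 14.0 CPM (-2.20 ± 0.30). Ifit3 and Ifit3b are near-identical copies, and their counts are uncertain because reads that fit both could be split by strain.

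Interferon-stimulated genes are switched on through a response element whose core is GAAA, any 2 bases and GAAA again. That motif, on either strand, stood within 250 bases before the start of 20 of the 33 listed genes with a promoter in RefSeq (60.6%), against 936 of 27025 promoters in all (3.46%). Among the listed genes it was in 9 of 19 higher in PWK/PhJ, 4 of 6 higher in 129S1/SvImJ and 7 of 8 that were not called. The promoters of the 3 Ifit genes are shown because their levels diverged: they are the 250 bases before each start in GRCm38.p6, plus strand, chr19:34640639-34640888 for Ifit1, chr19:34583279-34583528 for Ifit3 and chr19:34607707-34607956 for Ifit3b, with the motif in capitals (here as its reverse complement).
Ifit1: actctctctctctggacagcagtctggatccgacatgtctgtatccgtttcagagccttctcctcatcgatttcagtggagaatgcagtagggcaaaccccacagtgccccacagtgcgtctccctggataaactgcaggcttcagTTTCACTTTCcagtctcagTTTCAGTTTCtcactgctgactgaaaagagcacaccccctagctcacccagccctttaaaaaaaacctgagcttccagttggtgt
Ifit3: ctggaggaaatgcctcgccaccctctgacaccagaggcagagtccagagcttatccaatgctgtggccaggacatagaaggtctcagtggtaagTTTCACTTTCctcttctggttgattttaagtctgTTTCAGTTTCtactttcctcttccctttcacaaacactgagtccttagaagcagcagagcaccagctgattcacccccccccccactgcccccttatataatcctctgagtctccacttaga
Ifit3b: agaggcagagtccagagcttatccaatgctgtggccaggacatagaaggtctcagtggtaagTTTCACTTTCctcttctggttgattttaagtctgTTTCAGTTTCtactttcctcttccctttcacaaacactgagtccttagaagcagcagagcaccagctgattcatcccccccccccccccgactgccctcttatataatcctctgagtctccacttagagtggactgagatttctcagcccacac
Each holds the motif at 2 places, beginning 104 and 85 bases before the start in Ifit1, 156 and 122 in Ifit3 and 188 and 154 in Ifit3b. The opposite directions of Ifit3 and Ifit3b thus went with the same pair of motifs in the reference, which is the C57BL/6J sequence and not that of either strain compared.

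Acute-phase and complement genes of the hepatocyte were higher in 129S1/SvImJ for 20 of 53 (37.7%, against 26.8% of all genes) and in PWK/PhJ for 12, and CD gave 17 and 7. Orm1, an acid glycoprotein of the acute phase, read 63.7, 145 and 264 CPM in PWK/PhJ and 403, 501 and 635 CPM in 129S1/SvImJ on WD. On CD the levels were 7.32, 9.18 and 11.6 CPM and 316, 472 and 617 CPM, so that WD raised it in PWK/PhJ (3.87 ± 0.32) with no called change in 129S1/SvImJ (0.12 ± 0.29). The interaction of 3.75 ± 0.43 (adjusted p = 1.24e-09) was called under all 39 alternatives run. Lcn2, the iron-siderophore binder lipocalin-2, read 86.5, 256 and 542 CPM and 78.7, 108 and 126 CPM. Its difference (1.22 ± 0.49, adjusted p = 0.0286) was lost under 8 of 27 alternatives, among them cohort as a covariate (0.39, adjusted p = 0.723) and without PWK/PhJ replicate 2 (1.02, adjusted p = 0.0814). Saa1, serum amyloid A, overlapped at 205, 489.8 and 827 CPM and 158, 178 and 332 CPM (1.15 ± 0.76, adjusted p = 0.195).

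Genes of sterol and lipid metabolism kept much of their CD difference. WD lowered all 20 cholesterol synthesis genes in PWK/PhJ and 19 in 129S1/SvImJ, and 8 stayed higher in PWK/PhJ and 1 in 129S1/SvImJ on WD, against 14 and 0 on CD. Hmgcs1, the synthase that feeds the mevalonate pathway, read 46.1, 91.5 and 149 CPM in PWK/PhJ and 29.5, 33.4 and 45.3 CPM in 129S1/SvImJ, and the lowest PWK/PhJ mouse was next to the highest 129S1/SvImJ mouse (1.31 ± 0.27, adjusted p = 1.7e-05). Cyp7a1, the rate-limiting enzyme of bile acid synthesis, read 35.7, 83.3 and 173 CPM in PWK/PhJ and 261, 414 and 681 CPM in 129S1/SvImJ, with no overlap (-2.47 ± 0.56, adjusted p = 0.000104). Abcg5 and Abcg8, the paired transporters that export sterols into bile, were lower in PWK/PhJ as well (-1.54 ± 0.14 and -1.38 ± 0.16). Their gene models overlap on opposite strands, and reads of the overlap cannot be assigned without a stated strand setting. All 3 differed on CD in the same direction.

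Of 31 lipogenesis genes, 9 (29.0%, near the 28.1% of all genes) were higher in PWK/PhJ and 2 in 129S1/SvImJ on WD. Pnpla3, a lipase of the lipid droplet, read 13.6, 28.5 and 45.6 CPM in PWK/PhJ and 1.18, 1.49 and 3.06 CPM in 129S1/SvImJ (4.11 ± 0.68, adjusted p = 2.69e-07), near its CD difference of 4.74 ± 0.54. Scd1, the stearoyl-CoA desaturase, overlapped (0.14 ± 0.30, adjusted p = 0.719). Pparg, the nuclear receptor that turns on lipid storage, was lower in PWK/PhJ, at 1.22, 3.87 and 11.5 CPM against 6.86, 11.5 and 15.0 CPM (-1.35 ± 0.30, adjusted p = 7.44e-05), with overlap, and WD raised it in both strains, by 3.46 ± 0.63 and 2.58 ± 0.37. Fitm1, which partitions triglyceride into droplets, read 0.319, 1.31 and 2.15 CPM and 6.31, 11.2 and 15.9 CPM (-3.21 ± 0.48). Cd36, the fatty acid translocase, overlapped on WD, at 110.0, 175 and 239.6 CPM and 79.97, 131 and 179 CPM (0.45 ± 0.22, adjusted p = 0.0811). On CD it was higher in PWK/PhJ (1.88 ± 0.22), WD raised it further in 129S1/SvImJ (2.57 ± 0.22) than in PWK/PhJ (1.13 ± 0.22), and the interaction was -1.44 ± 0.31 (adjusted p = 0.00155).

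Of 32 fatty acid oxidation genes, 10 (31.2%, near the 26.8% of all genes) were lower in PWK/PhJ and 2 were higher. The ω-hydroxylase genes Cyp4a14 and Cyp4a10, targets of the fasting receptor PPARα, read 4.83, 14.5 and 22.2 CPM against 95.3, 252 and 504 CPM (-4.41 ± 0.95) and 66.4, 104 and 155 CPM against 245, 535 and 680.0 CPM (-2.03 ± 0.67). In gluconeogenesis and insulin response 7 of 21 (33.3%, near the 28.1% of all genes) were higher in PWK/PhJ and 4 in 129S1/SvImJ. G6pc, glucose-6-phosphatase, read 267, 324 and 521 CPM and 56.9, 106 and 409.8 CPM (1.59 ± 0.37, adjusted p = 0.000159), with 129S1/SvImJ replicate 6 alone in reaching the PWK/PhJ range, and CD showed no difference past the threshold (0.00 ± 0.41). Igfbp1, the insulin-repressed IGF binding protein, read 46.2, 86.7 and 162 CPM and 7.17, 13.8 and 44.7 CPM (2.53 ± 0.54). Fgf21, a fasting hormone of the liver, read 6.41, 17.8 and 33.1 CPM and 3.46, 5.04 and 8.13 CPM (1.81 ± 0.48, adjusted p = 0.00089), and Gdf15, a stress hormone, overlapped (-0.31 ± 0.43, adjusted p = 0.567). Alb did not pass on WD (-0.17 ± 0.10, adjusted p = 0.127), although WD lowered it in PWK/PhJ (-0.69 ± 0.10) and in 129S1/SvImJ (-0.26 ± 0.10).

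**Figure D4:**
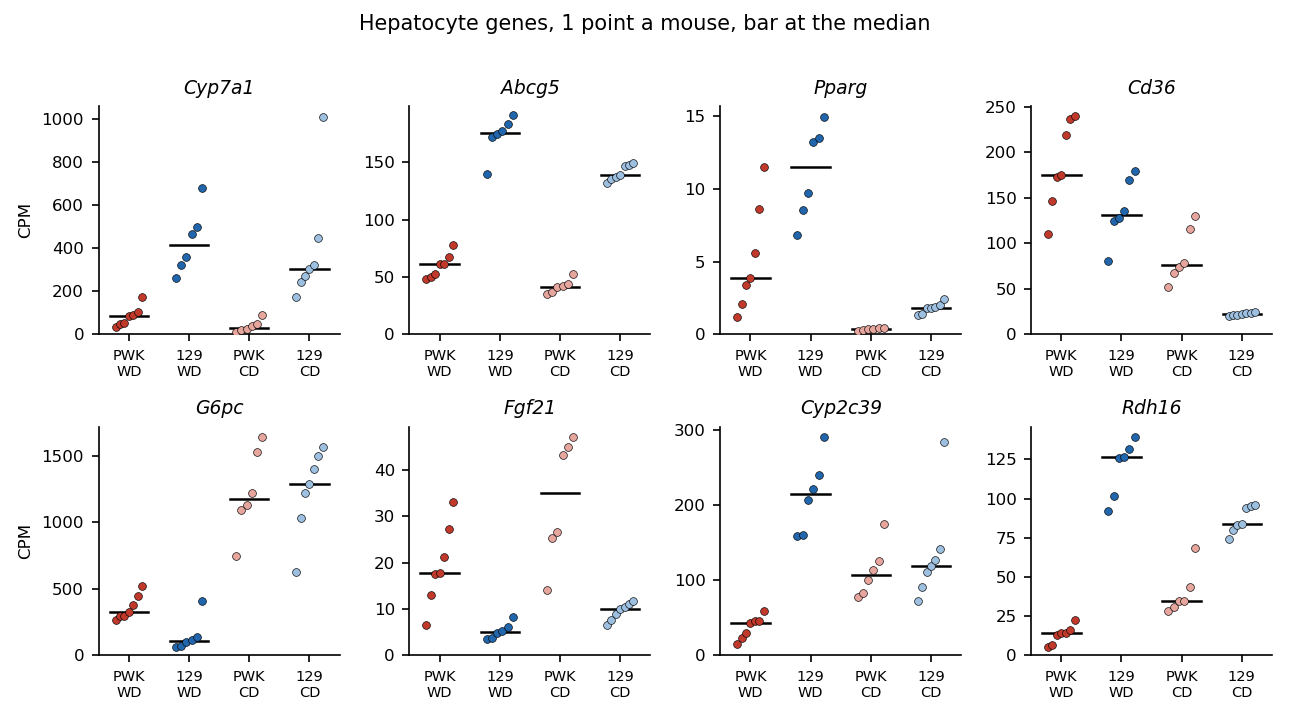
CPM, on an axis from 0, of 8 hepatocyte genes in each mouse of the 4 groups, with 1 point a mouse and a bar at the group median. Cyp7a1, Abcg5, Cyp2c39 and Rdh16 are lower in PWK/PhJ on WD without overlap, the Cd36 groups overlap on WD, and 1 129S1/SvImJ mouse reaches the PWK/PhJ range for G6pc.

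Detoxification was the hepatocyte list with the most members lower in PWK/PhJ. Of 51 cytochromes and conjugating enzymes, 28 (54.9%) were higher in 129S1/SvImJ and 11 in PWK/PhJ on WD, against 21 and 14 on CD, and the interaction called 12 toward 129S1/SvImJ and 0 toward PWK/PhJ. WD raised 14 and lowered 2 in 129S1/SvImJ, and raised 4 and lowered 13 in PWK/PhJ. Cyp2c39, a retinoic acid hydroxylase, read 14.9, 42.3 and 58.1 CPM in PWK/PhJ and 158, 214 and 290.4 CPM in 129S1/SvImJ (-2.62 ± 0.45, adjusted p = 5.39e-07), while its CD difference was -0.20 ± 0.44 and its interaction -2.42 ± 0.63 (adjusted p = 0.00878). Rdh16, a retinol dehydrogenase, read 4.91, 13.8 and 22.1 CPM and 92.0, 126 and 139 CPM (-3.32 ± 0.26), was lowered by WD in PWK/PhJ (-1.69 ± 0.26) and had an interaction of -2.15 ± 0.35 (adjusted p = 1.83e-05). Gstm2, a glutathione transferase, stood at 3.65, 5.69 and 8.86 CPM and 88.7, 103 and 123 CPM (-4.20 ± 0.27). Many members belong to families of near copies (Cyp2c, Cyp3a, Gstm), whose reads can be split between copies differently by strain, and single members are uncertain to that extent. Nr1i3, the xenobiotic receptor CAR, read 5.35, 7.31 and 11.9 CPM and 33.6, 42.7 and 56.1 CPM (-2.55 ± 0.27), and Onecut1, a hepatocyte transcription factor, 3.05, 5.91 and 17.6 CPM and 25.3, 25.9 and 35.4 CPM (-2.13 ± 0.55, adjusted p = 0.000691). Both were lower in every PWK/PhJ mouse. NRF2 targets, the antioxidant genes, followed with 11 of 21 (52.4%, against 26.8% of all genes) higher in 129S1/SvImJ and 3 (14.3%, against 28.1%) in PWK/PhJ. CD gave 5 and 6. WD raised 11 of them (52.4%, against 14.5% of all genes) in 129S1/SvImJ and 4 (19.0%, against 15.1%) in PWK/PhJ.

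Of 22 p53 and senescence genes, 9 (40.9%, against 26.8% of all genes) were higher in 129S1/SvImJ and 1 (4.55%, against 28.1%) in PWK/PhJ on WD. CD gave 10 and 2. Cdkn1a, the cell-cycle inhibitor p21, read 4.74, 6.98 and 23.8 CPM in PWK/PhJ and 21.2, 28.2 and 39.3 CPM in 129S1/SvImJ. Its call (-1.64 ± 0.52, adjusted p = 0.00550) was lost with cohort as a covariate (adjusted p = 0.0879), whereas Eda2r, another p53 target, separated the groups at 0.837, 1.60 and 4.17 CPM against 4.81, 5.79 and 7.07 CPM (-1.64 ± 0.31). Cell cycle genes were raised by WD in both strains, 24 and 22 of 36, and 7 were higher in PWK/PhJ and 3 in 129S1/SvImJ on WD. Of 32 endothelial genes, 13 (40.6%, against 26.8% of all genes) were higher in 129S1/SvImJ and 5 (15.6%, against 28.1%) in PWK/PhJ, and the 13 became 7 with cohort as a covariate.

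WD lowered nuclear genes of the mitochondrion in both strains, and more of them in PWK/PhJ. It lowered 27 of 36 complex I subunits (75.0%) in PWK/PhJ and 16 (44.4%) in 129S1/SvImJ. Of 41 subunits of complexes II to V, WD lowered 34 (82.9%) and 15 (36.6%). Among all genes it lowered 14.5% in PWK/PhJ and 13.6% in 129S1/SvImJ. On WD, 14 complex I subunits (38.9%, against 26.8% of all genes) were higher in 129S1/SvImJ and 5 (13.9%, against 28.1%) in PWK/PhJ. CD gave 6 and 12. The interaction called 5 complex I subunits (13.9%, against 4.05% of all genes) toward 129S1/SvImJ. That count fell to 1 without PWK/PhJ CD replicate 5, so that the difference between the strains in this decrease rested in part on that mouse. Of 53 mitochondrial ribosome genes 18 (34.0%) were higher in PWK/PhJ and 16 (30.2%) in 129S1/SvImJ on WD, near the 28.1% and 26.8% of all genes. Their interaction count toward 129S1/SvImJ fell from 7 (13.2%) to 3 without the same mouse. Of the 13 transcripts of mitochondrial DNA, 6 (46.2%) were higher in PWK/PhJ and 3 (23.1%) in 129S1/SvImJ on WD, and 6 and 4 on CD. Their summed level was higher in 129S1/SvImJ. On WD it was 48936, 59301 and 73249 CPM in PWK/PhJ and 71396, 78244 and 84403 CPM in 129S1/SvImJ, with slight overlap. On CD it was 51235, 56347 and 60699 CPM and 77234, 82091 and 85681 CPM, without overlap. mt-Co1, an oxidase subunit, read 12792, 15087 and 17032 CPM in PWK/PhJ and 26057, 28845 and 30496 CPM in 129S1/SvImJ (-0.94 ± 0.08), and mt-Nd3, a complex I subunit, 51.6, 81.4 and 94.5 CPM and 0.864, 1.20 and 1.51 CPM (5.96 ± 0.18). Nuclear copies of mitochondrial DNA can take such reads, and these levels are uncertain. Chromatin modifiers had the reverse interaction, 8 of 69 (11.6%, against 3.9% of all genes) toward PWK/PhJ and 0 toward 129S1/SvImJ. WD lowered 24 of them (34.8%, against 13.6% of all genes) in 129S1/SvImJ and 4 (5.8%, against 14.5%) in PWK/PhJ. Chd2, a chromatin remodeller, read 23.5, 27.8 and 32.9 CPM in PWK/PhJ and 14.8, 19.6 and 21.8 CPM in 129S1/SvImJ on WD (0.55 ± 0.11), with an interaction of 0.77 ± 0.15 (adjusted p = 0.000361).

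The genes that both separated the strains on WD and were called in the interaction in the same direction were led, toward PWK/PhJ, by Mfap3l, a membrane glycoprotein gene at GRCm38 chr8:60632827-60676729. It read 12.6, 23.5 and 35.5 CPM in PWK/PhJ and 0.645, 0.821 and 1.27 CPM in 129S1/SvImJ on WD (4.78 ± 0.36, adjusted p = 1.55e-20). WD raised it in PWK/PhJ (2.73 ± 0.24) and not past the threshold in 129S1/SvImJ (0.16 ± 0.48), and the interaction was 2.57 ± 0.54 (adjusted p = 0.00101) and called under all 38 alternatives run. Gnai1, an inhibitory G protein subunit, read 16.0, 25.1 and 32.9 CPM and 1.00, 1.62 and 2.69 CPM, with an interaction of 1.52 ± 0.35. Prss8, the channel-activating protease prostasin, read 13.6, 17.3 and 20.4 CPM and 2.31, 3.13 and 3.71 CPM, and WD lowered it in both strains, with log2 changes of -0.54 ± 0.21 in PWK/PhJ and -2.17 ± 0.31 in 129S1/SvImJ. Ttc25, Cdh1, C7, Tspan17, Mug-ps1, Mx1 and Caln1 completed the 10 toward PWK/PhJ, at differences from 1.88 to 4.19. The 10 toward 129S1/SvImJ were Gstm2, Mpv17l, Lrtm1, Rdh16, Col20a1, Zap70, Rps26, Cyp2c39, Syt3 and Aatk, at differences from -4.20 to -2.52.

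The largest differences that were called on both diets without an interaction were of genes read at far lower levels in 1 strain than in the other. Serpina1c, an α1-antitrypsin gene, read 1.62, 1.78 and 3.11 CPM in PWK/PhJ and 1156, 1320 and 1504 CPM in 129S1/SvImJ on WD (-9.37 ± 0.22). The major urinary protein genes Mup18 and Mup1 parted in opposite directions, at 177, 364 and 497 CPM against 0.0611, 0.278 and 0.416 CPM and 0.300, 0.380 and 0.679 CPM against 39.3, 51.6 and 63.6 CPM. All 3 belong to multigene families of near-identical copies, so that their counts are uncertain. Akr1c18, C1s2, Ugt2b38 and Gng5-ps were the others toward PWK/PhJ, and Gstm3, Wfdc21 and Sdr9c7 toward 129S1/SvImJ.

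**Figure D5:**
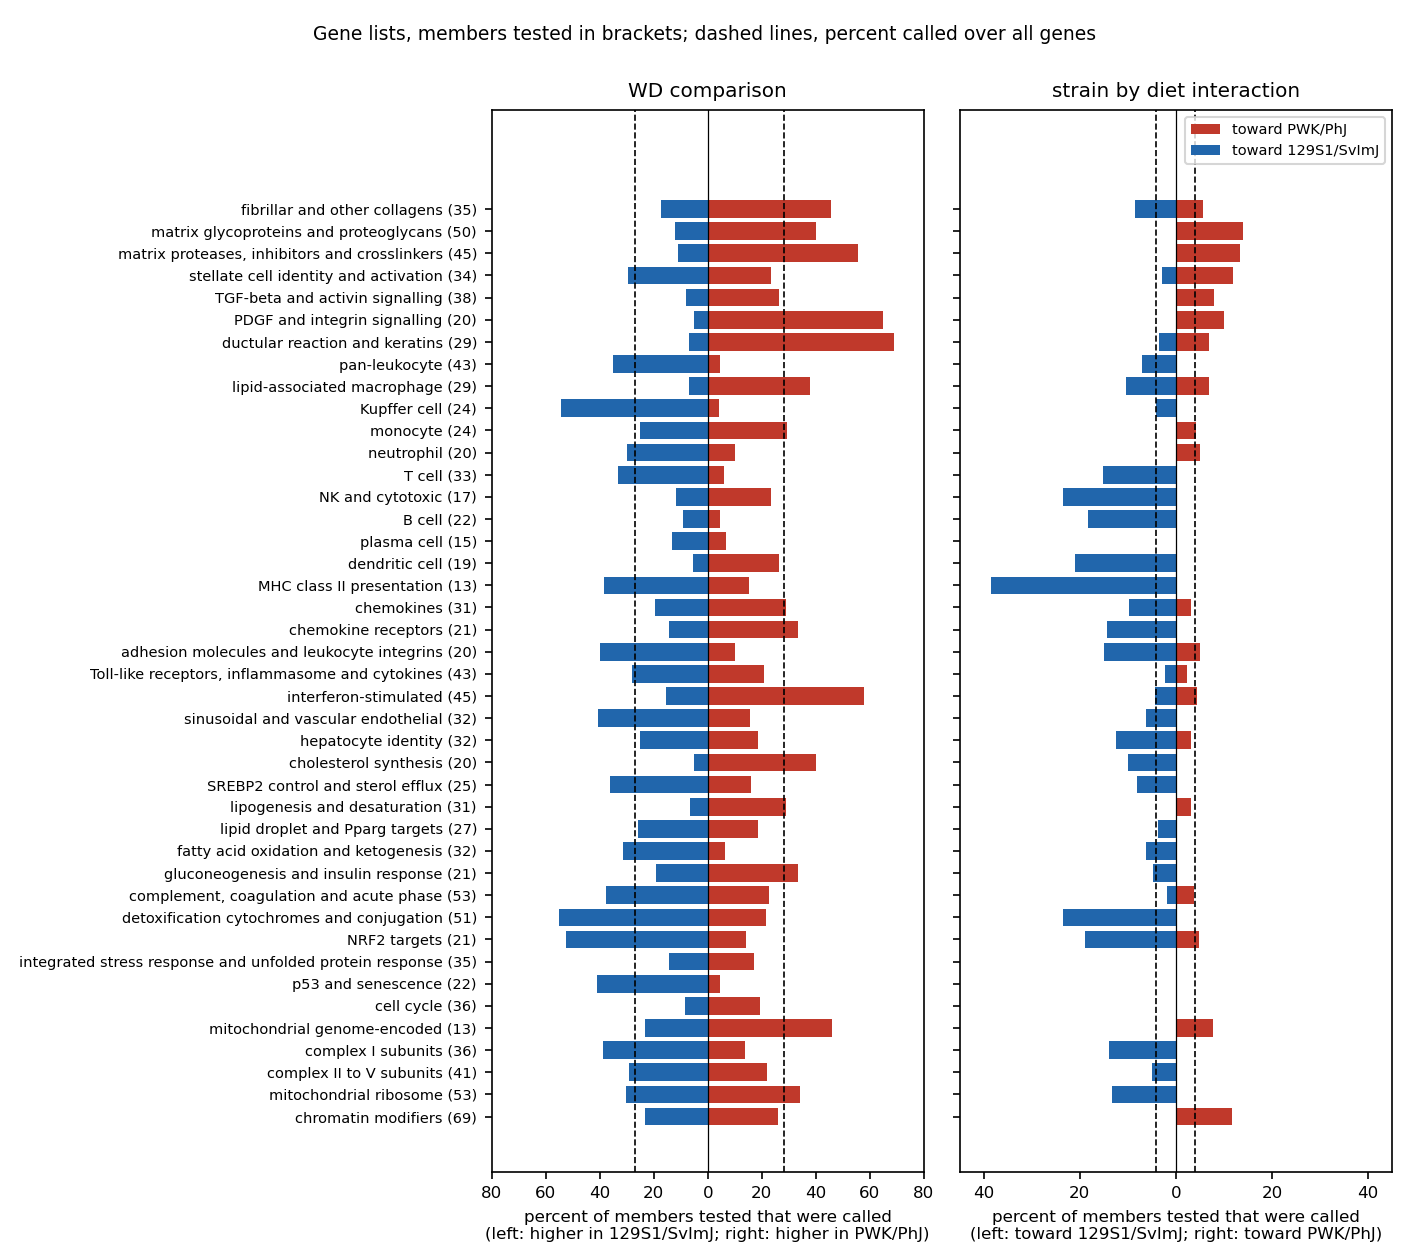
Percent of tested members of each of 42 gene lists called higher in PWK/PhJ or higher in 129S1/SvImJ on WD (left) and called in the strain-by-diet interaction (right), with the number of members tested in brackets. Dashed lines mark the percent called over all 19110 genes, and the ductular list reaches 69.0% toward PWK/PhJ and the detoxification list 54.9% toward 129S1/SvImJ.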

How the data were processed

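Bulk RNA-seq of whole liver from 93 mice in 14 groups (strain and diet) was analysed. The authors aligned reads with STAR 2.7.1a, and their processing notes name GRCm38 and mm10. The deposited table holds raw read counts per gene, and the strand setting and annotation release are not given in the sources used here. The 4 summary lines (unmapped, multimapping, unassigned and ambiguous reads) were removed, and 53360 of 53465 gene identifiers matched GENCODE vM21, which gave symbols and coordinates. Genes were kept by filterByExpr (minimum count 10), scaled by TMM (edgeR 4.0.16, R 4.3.3) and fitted with voom and limma 3.58.1 over all mice, with strain and diet combined into 14 group means. p-values were adjusted by Benjamini-Hochberg over all 19110 genes, and adjusted p below 0.05 was the threshold. WD and CD comparisons share no mice. CPM values use TMM-scaled library sizes. Values after ± are standard errors of log2 differences unless marked SD. Alternatives were edgeR's quasi-likelihood test, DESeq2 1.42.0, other scaling and filters, fewer mice, covariates, weights, single mice left out and single cohorts. The fit was tested on simulated counts.

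The gene lists and the genes described were chosen with earlier results of these data known. Genes were named if they were anchors of the liver's cell types and pathways, the up to 4 largest called differences of a list among members with mean log2 CPM of at least 0 on WD, or the 10 largest called differences in each direction without overlap that were also called in the interaction (mean log2 CPM of at least 1), the 5 largest called on both diets without an interaction, or the 5 largest interactions among genes that WD moved in opposite directions. Not every candidate is described, and some are withheld and not reported here. Further members of a list, given by their log2 difference alone, were chosen after their values were seen. Replicate numbers follow accession order and only name a mouse. Promoters came from RefSeq (GRCm38.p6), read over the 250 bases before each start.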

Additional observations from a re-analysis of the deposited data

Results flagged for a closer look

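Single mice stood apart from the rest of their WD group for 10 of 190 groups of CPM values tested, where chance gives about 1 in 20. Krt19 reached 11.7 CPM in 129S1/SvImJ replicate 2, with the next mouse at 3.93 CPM. 129S1/SvImJ replicate 6 was high for both insulin-responsive genes, at 409.8 CPM for G6pc (next mouse 136 CPM) and 44.7 CPM for Igfbp1 (next mouse 18.4 CPM). 129S1/SvImJ replicate 5 was highest for the lymphocyte gene Cd8a, at 1.31 CPM. In PWK/PhJ, replicate 6 was lowest for Laptm5 at 11.05 CPM and highest for Zap70 at 1.69 CPM, replicate 7 was highest for Timd4 at 6.69 CPM, and replicate 2 was lowest for Cd8a at 1.43 CPM. In 129S1/SvImJ, replicate 1 was lowest for Cd63 at 6.14 CPM and replicate 3 highest for Onecut1 at 35.4 CPM. No other measure of these mice was tested against these values.

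The strain difference changed with diet, by the limma interaction, for 22 of the genes described. Toward PWK/PhJ on WD these were Orm1 (3.75), Mfap3l (2.57), Cdh1 (1.97), Prss8 (1.62), Lyz2 (1.57), Tgfb2 (1.55), Gnai1 (1.52), Mx1 (1.12), Sox9 (1.09) and Chd2 (0.77), each as a log2 value. Toward 129S1/SvImJ they were Gzma (-3.43), Cyp2c39 (-2.42), Rdh16 (-2.15), Ncr1 (-2.13), Ccl5 (-2.001), Zap70 (-1.66), Cxcl10 (-1.61), Cd36 (-1.44), Gstm2 (-1.20), H2-DMa (-1.15), H2-DMb1 (-1.12) and Alb (-0.43). The fit was adjusted over all genes and not over these 22.

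Reads that did not map, which enter no gene comparison, made up 7.88% of the PWK/PhJ WD libraries on average, against 3.50% of the PWK/PhJ CD libraries. What those reads were was not tested.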

How the results depend on the processing

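The counts of genes that differed on WD were 5279 toward PWK/PhJ and 5081 toward 129S1/SvImJ by edgeR, 5430 and 5072 by DESeq2, and 4258 and 4083 with cohort as a covariate. Fewer genes tested gave fewer calls: with at least 10 counts in every mouse (12181 genes) 3571 and 3337 differed on WD and 3336 and 3212 on CD, and with no filter (41553 genes) 7934 were higher in 129S1/SvImJ on CD. Interaction counts ranged more widely, with 1379 genes toward PWK/PhJ and 1406 toward 129S1/SvImJ when only the 26 mice were fitted, 1595 and 1620 with sample quality weights, and 886 and 893 with cohort as a covariate. Between single cohorts, with fewer mice, the interaction counts were 72 and 59 (PWK/PhJ cohort 1 against 129S1/SvImJ cohort 3), 280 and 248 (1 against 5), 113 and 106 (2 against 3) and 227 and 228 (2 against 5). Leaving out single mice gave 5039 to 5301 genes toward PWK/PhJ and 4912 to 5071 toward 129S1/SvImJ on WD, 4913 to 5000 and 4647 to 4796 on CD, and 496 to 824 and 560 to 840 in the interaction, of which 496 was without 129S1/SvImJ WD replicate 4.

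Of 75 genes called on WD among the 95 described, 55 were called under every alternative run, 8 were lost with cohort as a covariate and 10 were lost between single cohorts alone. Of the 20 not called, 7 were called under at least 1 alternative. Of the 22 interactions, Orm1 and Mfap3l were called under every alternative. Among called values, 3 changed sign, each between single cohorts and none past the threshold: Krt19 on WD (0.0878, PWK/PhJ cohort 1 against 129S1/SvImJ cohort 5), Ifit3b on CD (-0.22, the same pair) and the Mx1 interaction (-0.22, cohort 2 against cohort 3). The cause was not tested. Among values that were not called on WD, those of Tgfb1, Trem2, Ncr1, Ccl5, Scd1, Ptprc, Cd68, Gzma, Ms4a1 and Gdf15 took both signs over the alternatives. Plain library sizes changed the direction of 0 of the 95 ratios of mean CPM. The alternatives that left out single WD mice or paired single cohorts for the list counts, and the one without PWK/PhJ CD replicate 5, were chosen after seeing the data. No paired analysis was possible because the labels give no replicate numbers that link the strains. Transcripts below about 1 CPM, such as Cd3e, Gzma and Ncr1, rested on few reads, which limits the precision of their values.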

Other observations

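The remaining gene lists are given beside all genes, of which 28.1% were higher in PWK/PhJ and 26.8% in 129S1/SvImJ on WD. Of 35 genes of the integrated stress and unfolded protein responses, which slow translation and raise chaperones when protein folding is strained, 6 were higher in PWK/PhJ and 5 in 129S1/SvImJ on WD. Of 43 Toll-like receptor, inflammasome and cytokine genes, 9 and 12 were higher in PWK/PhJ and 129S1/SvImJ, and WD raised 24 of them in PWK/PhJ and 25 in 129S1/SvImJ. Chemokine receptors gave 7 and 3 of 21, with 3 called in the interaction toward 129S1/SvImJ and 0 toward PWK/PhJ. Genes of lipid droplets and targets of PPARγ gave 5 and 7 of 27, and genes of SREBP2 control and sterol efflux 4 and 9 of 25. Of 32 hepatocyte identity genes, 6 were higher in PWK/PhJ and 8 in 129S1/SvImJ on WD, and WD lowered 11 in PWK/PhJ and 14 in 129S1/SvImJ.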
